A study of Mus musculus with 10 samples.

Results

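Neurotrophins are secreted growth factors that support the survival, branching and synaptic strength of neurons. BDNF and NT-3 each bind a receptor tyrosine kinase, TrkB and TrkC, and all neurotrophins and their precursors can also bind the p75 receptor. REST is a zinc finger repressor that binds the RE1 element, a bipartite DNA motif found at many neuronal genes, and Bdnf is a textbook gene with an RE1 near one of its promoters. REST binding was examined here at 5 genes of the pathway, the ligand genes Bdnf and Ntf3 (NT-3) and the receptor genes Ntrk2 (TrkB), Ntrk3 (TrkC) and Ngfr (p75), out of 26089 genes with curated RefSeq transcripts of the mouse genome build mm10. The genes were picked by name, and a peak was given to a gene if it overlapped the gene body or lay within 5 kb of a start site.

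The data came from REST ChIP-seq of whole cortex from female mice at 11 months of age. WT mice were littermate controls, and 3xTg mice carry the human APPSwe and tauP301L transgenes and a PS1 knock-in mutation. Each genotype had 4 ChIP libraries, each from 4 pooled cortices, and 1 input library. Both groups share the age, the sex and the antibody, which recognises the C-terminus of REST. The deposited files hold 1 list of peaks for each genotype, called over its replicates together, so no value below has a replicate error and the genotypes were not tested against each other from these lists. The WT list held 3006 peaks and the 3xTg list 5077. Each peak carries a fold enrichment, the signal at its summit over the local background. The lowest fold enrichment listed was 6.003 in WT and 8.502 in 3xTg, so a region can be listed in one genotype and miss the other through these different limits. The read depth behind a peak is unknown from the lists. In bulk cortex, REST bound in few cells and REST bound weakly in many cells cannot be told apart, and the lists hold no expression values with which to check the tissue against its markers.

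Of the 5 genes, the 2 Trk receptor genes had a peak in both lists, and Bdnf, Ntf3 and Ngfr had none in either. Ntrk2 and Ntrk3 each had 1 WT peak and 1 3xTg peak, which overlapped. Over all 26089 genes, 9.30% had a WT peak by the same rule, 14.2% had a 3xTg peak and 7.78% had a peak of both lists. With 5 genes, 2 with a peak is a description and sets the group apart from other genes in no way that was tested. Both receptor peaks lay in long introns of the curated transcripts, more than 250 kb from the start sites of their own genes. At Ntrk3 the WT summit was only 1573 bases from the nearest curated exon. No peak of either list lay within 5 kb of any start site of the 5 genes.

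The sequence under the receptor peaks and the closest RE1-like sites of the 5 loci are shown here because the results turn on whether REST signal and RE1 letters coincide. All are from the RefSeq GRCm38.p6 assembly, which is mm10. In the windows at the summits, on the plus strand, the capitals mark the bases between the WT summit and the 3xTg summit. The Ntrk3 window ends before a predicted exon, so its capitals start at the 3xTg summit and stop short of the WT summit.
Ntrk2, chr13:59089257-59089427: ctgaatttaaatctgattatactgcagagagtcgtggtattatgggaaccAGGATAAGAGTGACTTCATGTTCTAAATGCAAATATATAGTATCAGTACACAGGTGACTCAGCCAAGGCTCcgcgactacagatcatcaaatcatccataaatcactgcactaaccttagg
Ntrk3, chr7:78305830-78305979: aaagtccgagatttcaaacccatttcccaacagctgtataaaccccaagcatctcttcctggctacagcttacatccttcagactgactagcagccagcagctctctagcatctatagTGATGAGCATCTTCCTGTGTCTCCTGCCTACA

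For each locus, the 20 bases closest to the RE1 consensus are in capitals with 5 bases on either side, written on the strand that reads as the consensus. A further Ntrk3 site is added because it lies under a peak. Ngfr has no line because its closest 20 bases differed from the consensus at 7 positions.
Bdnf, chr2:109676046-109676065, minus strand, 2 mismatches: ccgctGGCTCTGTCCAAGGTGCTGAatgga
Ntrk3, chr7:78498026-78498045, plus strand, 3 mismatches: gcgcgAGCCCTGGCCATGGTGCTGAattct
Ntf3, chr6:126165799-126165818, plus strand, 4 mismatches: aggtaGGAGCCGACCCTGGAGCTGAgcatt
Ntrk2, chr13:58897689-58897708, plus strand, 4 mismatches: cacctGCAGCTGCCCTTGCTGCTGAggagg
Ntrk3, chr7:78305784-78305803, minus strand, 5 mismatches, inside the 3xTg peak: gggacTGAGCTTTCTGTGCTGCTGAgacta

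Bdnf encodes brain-derived neurotrophic factor. The gene spans chr2:109674700-109727043 on the plus strand, 52.3 kb, and its 12 curated transcripts begin at 9 start sites and share their last, coding exon. No peak lay in the gene or within 100 kb of it in either list. The nearest WT peak was 408 kb away, with a fold enrichment of 6.05 at rank 2791 of 3006, and the nearest 3xTg peak was 292 kb away, inside Ccdc34, with a fold enrichment of 9.04 at rank 4289 of 5077. Both of these neighbours were thus among the weaker entries of their lists.

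The Bdnf locus nevertheless held the closest RE1 match of the 5 genes. The site lies 158 bases downstream of a start site that 3 transcripts share, in their 5′ UTR. It falls in an intron of 1 further transcript and upstream of the remaining 8. Counted from 1 at the 5′ end of the consensus, its differences are G4T and T12A. It was under no peak. The nearest peak was 458818 bases away in WT and 343338 in 3xTg.

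Across the genome, RE1-like sites with 2 mismatches numbered 276. A WT peak covered 49 of them, 17.8% with a 95% Wilson interval of 13.7% to 22.7%, and a 3xTg peak covered 58, 21.0% with an interval of 16.6% to 26.2%. An uncovered site of this quality was therefore the commoner case, with 216 of the 276 under no peak of either list. Seen by gene, 196 genes held a site with at most 2 mismatches in the body or within 5 kb of a start site, and at 144 of them, Bdnf among these, no peak covered the site. Where sites with 2 mismatches were covered, the peaks had a median fold enrichment of 10.4 in WT and 15.5 in 3xTg. One other site in the genome has the same 20 bases as the Bdnf site, and it too was under no peak. Of the 23 other sites with 2 mismatches that carry T12A, 5 were under a WT peak and 5 under a 3xTg peak. Of the 18 others that carry G4T, 1 was under a WT peak and 2 under a 3xTg peak.

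**Figure D1:**
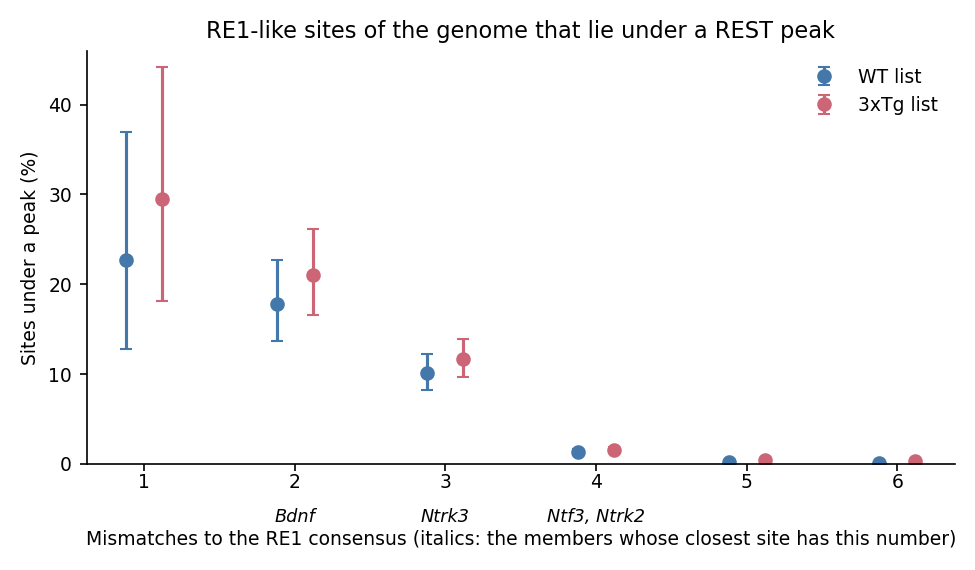
Share of RE1-like sites of the mouse genome that lie under a REST peak (vertical axis, percent) by the number of mismatches to the consensus (horizontal axis), for the WT list and the 3xTg list, with bars for 95% Wilson intervals that cover counting error only. The share falls from 17.8% in WT and 21.0% in 3xTg at 2 mismatches, the class of the Bdnf site, to 1.29% and 1.52% at 4 mismatches, the class of the closest Ntf3 and Ntrk2 sites.

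Ntf3 encodes neurotrophin-3, the main ligand of TrkC. The gene spans chr6:126101412-126166744 on the minus strand, 65.3 kb, with 3 curated transcripts and 2 start sites. No peak lay in it or within 100 kb of it. The nearest WT peak, 535 kb away with Kcna6 as the nearest start site, had a fold enrichment of 6.42 at rank 2378, and the nearest 3xTg peak, 381 kb away inside Ano2, had 8.96 at rank 4473. The locus held 4 sites with at most 5 mismatches, all outside peaks. The closest lies 848 bases upstream of the inner start site and in an intron of the 2 transcripts that begin further upstream, and it differs from the consensus by T6C, T8A, A11C and T15A. Genome-wide, 1.29% of the 5204 sites with 4 mismatches were under a WT peak and 1.52% under a 3xTg peak.

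Ngfr encodes p75, the low-affinity receptor shared by all neurotrophins. It is the shortest of the 5 genes, at chr11:95568818-95587698 on the minus strand, 18.9 kb with 1 curated transcript. No peak lay in it or within 100 kb of it. The nearest peak was the same region in both lists, 126 kb away in Spop, with a fold enrichment of 6.05 at rank 2791 in WT and 10.4 at rank 2844 in 3xTg. This was the closest neighbouring WT peak of any of the 5 genes. The surroundings of Ngfr were also the richest in peaks, with 4 WT and 6 3xTg peaks within 500 kb, against at most 1 WT and 2 3xTg peaks outside the gene for each of the other 4. No site with 6 or fewer mismatches was found at Ngfr.

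Ntrk2 encodes TrkB, the receptor for BDNF, in a full-length form with a kinase domain and in truncated forms without one. The gene spans chr13:58806569-59133970 on the plus strand, 327 kb. Of its 3 curated transcripts, 2 run the whole length with 18 exons and a coding length of 2466 bases, and 1 ends early with 13 exons and a coding length of 1431 bases. The WT peak, chr13:59088662-59089496, had a fold enrichment of 6.68, which placed it at rank 2005 of 3006 in a tie of 13 peaks. The 3xTg peak, chr13:59089056-59089743, had a fold enrichment of 9.17 at rank 4076 of 5077. The −log10 q was 18.7 in WT and 33.96 in 3xTg. In both lists the peak was thus in the lower part of the ranking, with 67.1% of WT peaks and 80.6% of 3xTg peaks at or above it.

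Both Ntrk2 summits lay in intron 16 of the 2 long transcripts, an intron of 65970 bases, and beyond the end of the short transcript. The WT summit was 281610 bases downstream of the nearest Ntrk2 start site, 86.4% of the way along the gene, and 28845 bases from the nearest exon on its 5′ side. The next exons after it are the last 2 of the full-length form. The nearest start site of any gene was that of Gm53063, a long non-coding RNA, 15593 bases away, and no other gene overlapped the summits.

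Ntrk3 encodes TrkC, the receptor for NT-3, again with full-length and truncated forms. The gene spans chr7:78192114-78577838 on the minus strand, 386 kb, and its 2 curated transcripts share their start site. One has 17 exons and a coding length of 2478 bases, the other 14 exons and a coding length of 1839 bases. The WT peak, chr7:78305822-78306170, had a fold enrichment of 7.56 at rank 1285 of 3006. The 3xTg peak, chr7:78305584-78306181, had 10.01 at rank 3122 of 5077. The −log10 q was 20.5 in WT and 37.4 in 3xTg. These values placed the WT peak near the middle of its list, with 44.98% of peaks at or above it, and the 3xTg peak lower in its own, with 63.3% at or above it. Ties were common, with 68 WT peaks and 91 3xTg peaks sharing these values, the Ntrk3 peaks included.

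The Ntrk3 summits lay in intron 12 of both curated transcripts, 271839 bases downstream of the start site in WT and 271890 in 3xTg. The first exon of the truncated form's own end is the nearest exon, 1573 bases past the WT summit in the direction of transcription. RefSeq also predicts a Ntrk3 transcript that ends at chr7:78305980-78306329, an exon of 350 bases. The WT summit lay inside this predicted exon and the 3xTg summit 32 bases beyond its end, so the peak sits across a predicted 3′ end of the gene. The distance to a start site was long among the peaks, since only 3.23% of WT peaks and 3.88% of 3xTg peaks lay farther from any start site than the Ntrk3 peaks, whereas 41.3% and 46.1% did for the Ntrk2 peaks. Intronic summits as such were common, 42.5% of WT peaks and 47.1% of 3xTg peaks.

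**Figure D2:**
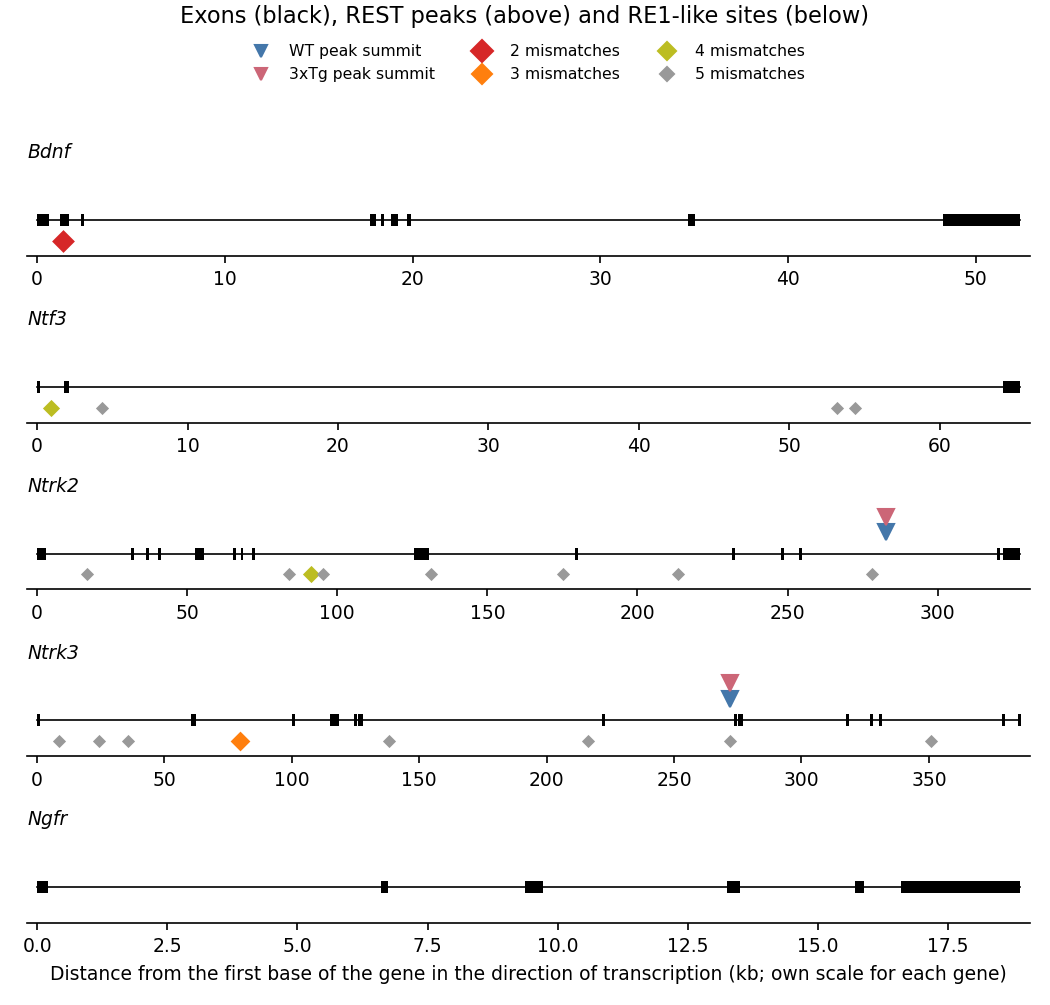
Maps of the 5 genes drawn from the first base in the direction of transcription (horizontal axis, kb, a separate scale for each gene). Black boxes are exons of curated transcripts, widened where needed to be seen, triangles are peak summits of the WT and 3xTg lists, and diamonds are RE1-like sites by mismatches. The 2 pairs of summits, in Ntrk2 and Ntrk3, stand more than 250 kb from the start, and the site with 2 mismatches in Bdnf has no peak.

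The receptor peaks were next compared with each other and with the rest of the lists. The WT fold enrichment of 6.68 at Ntrk2 was below that of 7.56 at Ntrk3, and in 3xTg the order was the same, 9.17 and 10.01. The WT list had a median of 7.28, between the 2 genes, and the 3xTg list a median of 10.8, above both. At Ntrk2 the summits of the lists were 70 bases apart, at Ntrk3 51, against a median of 33 over all 2504 shared pairs of peaks. The overlap of 441 bases at Ntrk2 covered 52.8% of the WT peak and 64.1% of the 3xTg peak. At Ntrk3 the WT peak lay wholly inside the 3xTg peak and covered 58.4% of it. The Ntrk3 peaks were narrow, 349 and 598 bases, against list medians of 611.5 and 937. The Ntrk2 peaks were 835 bases wide in WT and 688 in 3xTg.

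**Figure D3:**
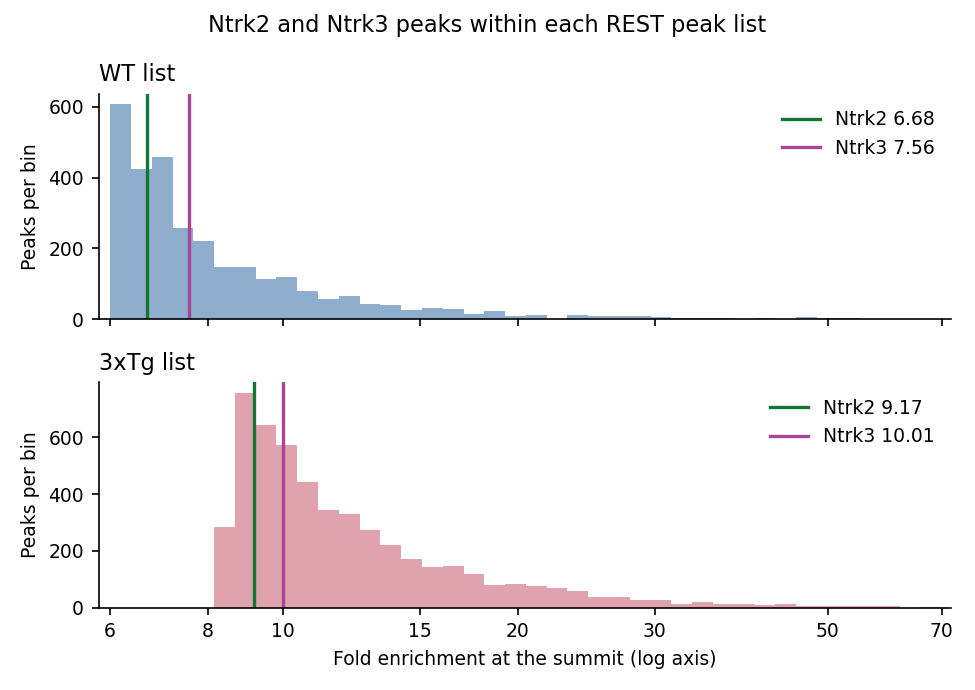
Number of peaks (vertical axis) by fold enrichment (horizontal axis, log scale) in the WT list and the 3xTg list, with lines at the Ntrk2 and Ntrk3 peaks. The lines stand at 6.68 and 7.56 in WT and at 9.17 and 10.01 in 3xTg, in the crowded lower end of both lists.

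The 3xTg value was higher than the WT value at both genes, by a ratio of 1.37 at Ntrk2 and 1.32 at Ntrk3. This direction was nearly universal, since the ratio was above 1 at 2492 of the 2504 shared pairs (99.5%), with a median of 1.70. Relative to the other pairs, both receptor ratios were low. A lower ratio was found at 13.3% of all pairs for Ntrk2 and at 8.95% for Ntrk3, and among the 1401 pairs with a WT fold enrichment of 6 to 8, at 10.9% and 5.996%. Divided by the median ratio, the values were 0.808 and 0.779, below 1. The different limits of the lists bound these ratios from below. With the WT values observed, the lowest 3xTg value listed would give 1.27 at Ntrk2 and 1.12 at Ntrk3. Since the lists give no values by replicate, whether REST binding at either gene differed between WT and 3xTg was not tested here. The study ran its own differential binding analysis and reported peaks with significantly higher REST occupancy in 3xTg and none with lower. Whether the Ntrk2 and Ntrk3 peaks are among those was not examined here.

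**Figure D4:**
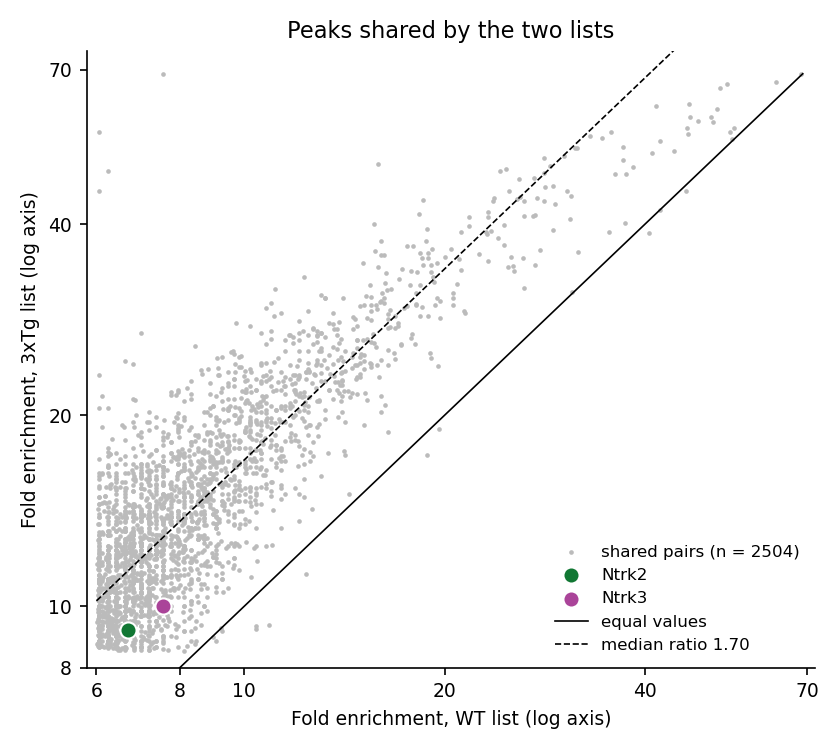
Fold enrichment in the 3xTg list (vertical axis, log scale) against that in the WT list (horizontal axis, log scale) for the 2504 pairs of overlapping peaks, with Ntrk2 and Ntrk3 in colour, a solid line at equal values and a dashed line at the median ratio of 1.70. Both genes lie above the solid line and below the dashed line.

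Other genes had almost the same pair of values. Among the 2030 genes with a peak of both lists, taking the highest fold enrichment of each gene, the nearest to Ntrk3 was the phosphodiesterase gene Pde4b, with the identical values of 7.56 in WT and 10.01 in 3xTg. Next came 4930583I09Rik with 7.56 and 9.84, and Arf1, which encodes a small GTPase of the Golgi, with 7.52 and 9.74. Near to Ntrk2 were the centrosomal protein gene Cep120 with 6.68 and 9.20 and the triglyceride synthesis gene Dgat1 with 6.72 and 9.17. Within a log2 distance of 0.1 of the pair of values, there were 115 genes for Ntrk2 and 55 for Ntrk3, so neither pattern was rare.

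None of the 4 receptor peaks held a match to the RE1 consensus with at most 5 mismatches in the 200 bases around its summit. The closest 20 bases there differed at 9 positions in 3 of the peaks and at 10 in the 3xTg peak of Ntrk2. Neither half-site of the element, CAGCACC or GGACAGC, searched on both strands, occurred in these windows. Matches were also rare in the lists as a whole, where 5.69% of WT peaks and 3.78% of 3xTg peaks held one around the summit, against 0.466% and 0.335% of windows placed 10 kb downstream. The half-site CAGCACC occurred in 9.81% of WT and 7.82% of 3xTg summit windows, and GGACAGC in 9.25% and 7.03%. In this the receptor peaks were like most peaks of the lists. The study itself reported RE1 motifs as highly enriched among the peaks of both genotypes. That result came from a motif program, a different measure from this count of mismatches at a fixed spacing. Searched over its whole width, the 3xTg peak of Ntrk3 held the site with 5 mismatches printed above, 154 bases from the summit and 19 bases outside the WT peak. Its differences are G1T, G7T, C10T, A11G and G14C. Sites with 5 mismatches number 36001 in the genome, of which 0.453% were under a 3xTg peak.

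The better RE1-like sites of the receptor genes were elsewhere. The closest in Ntrk3, with 3 mismatches (G1A, G4C and T8G), lies in an intron 79803 bases downstream of the start site and 191856 bases from the WT peak. No peak covered it. Of 892 such sites in the genome, 10.1% were under a WT peak and 11.7% under a 3xTg peak. The closest in Ntrk2, with 4 mismatches (G2C, T8C, A11T and G14C), lies in an intron 90001 bases downstream of the start site and 190954 bases from the WT peak, again uncovered. Taken over the 5 genes, 21 sites had at most 5 mismatches, none was under a WT peak and 1 was under a 3xTg peak.

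Start sites were examined apart from peaks. RefSeq promoter sequences, from 250 bases before to 50 bases after a start site, were matched for 7 Bdnf promoters, 2 of Ntf3, 1 of Ntrk2 and 1 of Ngfr. No promoter sequence was at hand for Ntrk3, and the 7 of Bdnf are fewer than its 9 start sites. In each gene that was matched, the closest 20 bases to the RE1 consensus had 8 mismatches, and neither half-site occurred. Of all 32619 promoters, 0.960% held a match with at most 5 mismatches, 7.19% held CAGCACC and 6.60% held GGACAGC. The Bdnf site lies outside these windows, since it begins farther than 50 bases into its transcripts.

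The receptor windows had a GC content at or below the medians of their lists. In the 200 bases around the summit, GC content was 38% in WT and 42% in 3xTg at Ntrk2, and 43% and 47% at Ntrk3, where the medians were 49% over WT peaks and 47% over 3xTg peaks. CpG dinucleotides numbered 3 and 4 at Ntrk2 and none at Ntrk3. The Ntrk2 windows had no base that RefSeq marks as repeat, and the Ntrk3 windows had 10.5% and 16.0%. Windows without repeat bases made up 57.1% of WT and 54.5% of 3xTg peaks.

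Gene length differs widely among the 5 genes and goes with the share of genes that hold a peak. Among 477 coding genes of 250 to 500 kb, the range of Ntrk2 and Ntrk3, 35.4% had a WT peak, 52.0% a 3xTg peak and 34.2% both. Among 2717 coding genes of 40 to 80 kb, the range of Bdnf and Ntf3, the shares were 12.5%, 19.5% and 10.7%. Among 6148 coding genes of 10 to 30 kb, the range of Ngfr, they were 8.99%, 13.0% and 7.21%. In the length class of Ntrk2 and Ntrk3, most genes still lacked a WT peak, and a small majority had a 3xTg peak. In the shorter classes most genes lacked a peak in each list. Whether length bears on which of the 5 genes held a peak was not tested. Over the combined 0.850 Mb of the 5 genes, the 2 peaks of each list amount to 2.35 per Mb, against 1.56 per Mb in WT and 2.74 per Mb in 3xTg over all coding genes.

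**Figure D5:**
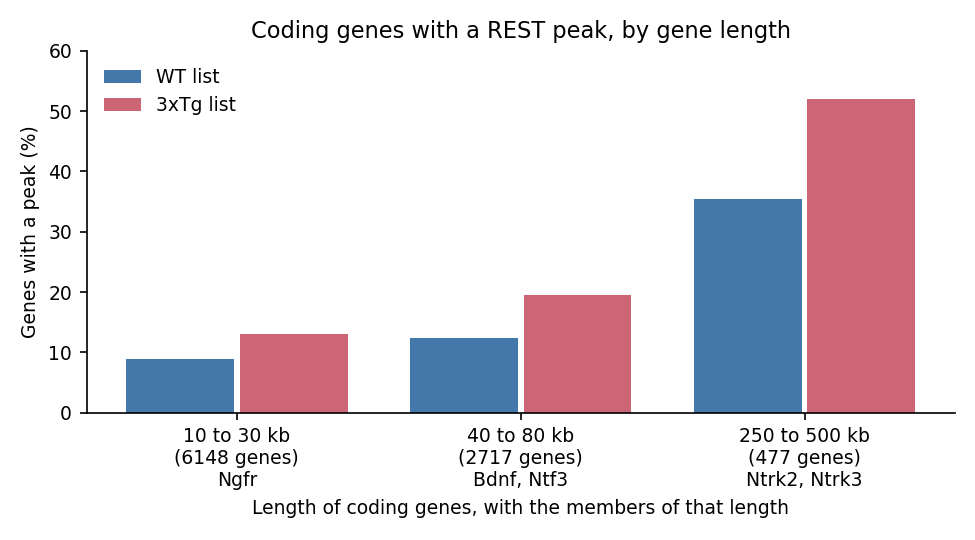
Share of coding genes with a peak (vertical axis, percent) in the WT and 3xTg lists, for the 3 ranges of gene length that hold the 5 genes (horizontal axis). The share rises from 8.99% and 13.0% at 10 to 30 kb to 35.4% and 52.0% at 250 to 500 kb.

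One further peak stood near a receptor gene. In the 3xTg list only, a peak lay 89.2 kb beyond the 3′ end of Ntrk3, with a fold enrichment of 10.01 at rank 3122, the same value as the intronic peak. It lies outside the rule and no WT peak overlapped it. The next WT peak outside Ntrk3 was 717 kb away. Around Ntrk2 the next peaks were 975 kb away in WT and 439 kb away in 3xTg, so the intronic peak stood alone in both lists.

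Ntf5, which encodes neurotrophin 4/5, a further ligand of TrkB, had no peak in either list. Over 6 lists of related genes, 60 in all, 9 (15%) had a WT peak, 12 (20%) a 3xTg peak and 7 both. The shares were 9.30%, 14.2% and 7.78% over all genes, and 10.3%, 15.7% and 8.67% over all coding genes. Neither background was matched to the lengths of the listed genes. The same shares stand beside the counts of each list below, and no list was tested against them.

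Among 9 co-receptors and sorting receptors, 1 had a WT peak and 3 a 3xTg peak. Sort1 (sortilin, which binds pro-neurotrophins with p75) had 2 WT peaks and 1 3xTg peak. The higher WT peak, of 6.997, lay 12206 bases from the 3xTg peak of 8.98. Whether the lower WT peak of Sort1 overlapped the 3xTg peak was not examined. Sorcs1 and Sorl1, of the same sorting receptor family, were listed in 3xTg only, with 10.4 and 9.23. Among 7 genes of pro-neurotrophin processing, only Pcsk6, a proprotein convertase, had a peak, with 7.56 in WT and 11.7 in 3xTg.

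Among 23 Trk adaptors and signalling genes, 5 had a WT peak and 7 a 3xTg peak. The highest 3xTg values belonged to adaptor genes. Sh2b2 had 9.41 in WT and 18.6 in 3xTg, Grb2 had 9.08 and 16.9, and Gab1 had 7.69 and 14.2. At these 3 genes the summits of the lists were at most 92 bases apart. The ubiquitin ligase gene Nedd4l followed, with 2 WT peaks and 1 3xTg peak. The higher WT peak, of 8.13, was at a start site, 163763 bases from the 3xTg peak of 12.8. Whether the lower WT peak of Nedd4l overlapped the 3xTg peak was not examined. Sh2b2, Grb2, Gab1 and Nedd4l, named for the highest 3xTg values among the 23 genes, exceeded the Ntrk2 and Ntrk3 values in both lists. The 3 genes of this group with a peak in 3xTg only had lower 3xTg values than Ntrk3. None of the 9 p75 associated genes had a 3xTg peak, where 14.2% of all genes had one. In a group of 9 this count sets the genes apart in no way that was tested. Prdm4, named here after its values were seen, had a WT peak of 6.43 at its start site. Among 9 GDNF ligand and receptor genes, Gfra1, the GDNF co-receptor, had 9.64 in WT and 13.5 in 3xTg. A peak within 1 kb of a start site was found at 2 of the 60 genes in WT (Nedd4l and Prdm4) and at 2 in 3xTg (Shc1 and Cbl), also named after their values were seen. Over all genes the shares with such a peak were 5.32% in WT and 7.84% in 3xTg.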

How the data were processed

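REST ChIP-seq of cortex was deposited as 1 narrowPeak-type list per genotype. The authors' methods name STAR for the alignment to mm10 (the submitters' processing notes also name BWA) and MACS for peak calling on single-end reads. They kept fold enrichment over 5 with q under 0.01 and removed the ENCODE blacklist. Per peak, the deposited lists give a score (the −log10 q-value times 10, cut to a whole number), the fold enrichment (a ratio), the −log10 p-value and −log10 q-value, and the summit offset. The score and the p-values were not used further.

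From these, chromosome Y was left out (4 and 9 peaks), rank 1 was the highest fold enrichment, and shared peaks overlapped by at least 1 base. Genes were the curated RefSeq transcripts of GRCm38.p6. The 20-base RE1 consensus followed the study's known-motif logo and was searched on both strands with pandas 2.3.3 and pysam 0.24.0. The site search and the assignment of peaks to genes were tested on simulated data, the latter against bedtools 2.31.1. No significance test was run, since the lists are pooled. Wilson intervals (95%) cover counting error only. The genes, the lists and the length ranges were chosen with earlier results of these data known. Genes named in the text are the 5 genes, Ntf5, up to 4 genes per further list with the highest 3xTg fold enrichment, and the 3 genes nearest to Ntrk2 and to Ntrk3 in both fold enrichments on the log2 scale. Some genes that this rule names are not reported here. Alternatives varied the fold enrichment and q limits, the distance to start sites, summits in place of peaks, predicted transcripts, chromosome Y, the ranking, the overlap, the scaling of the ratio and the mismatches allowed.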

Additional observations from a re-analysis of the deposited data

How the results depend on the processing

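The counts of genes with a peak (2 in WT, 2 in 3xTg, 2 in both) stayed at 2 with summits only. They were also 2 with q under 1e-05 and with predicted transcripts, but neither setting could have lowered them. All listed peaks pass that q limit, since the lowest −log10 q was 13.3 in WT and 28.96 in 3xTg. Predicted transcripts can only extend a gene. A fold enrichment over 10 was held by 598 of the 3006 WT peaks and by 3212 of the 5077 3xTg peaks, so this limit cuts the WT list more. Counts under it therefore cannot be set against each other between the lists. With this limit the counts were 0 in WT, 1 in 3xTg and 0 in both. They were all 0 with start sites only, within 5 kb or 1 kb, since both peaks lie more than 250 kb from their genes' start sites. With the 3xTg list limited to its 3006 strongest peaks, an alternative chosen after seeing the data, 0 genes had a 3xTg peak and 0 a peak of both. Over the 6 lists of related genes, the counts of 9 in WT and 12 in 3xTg became 2 and 2 with start sites only, 0 and 7 with fold enrichment over 10, and 7 in 3xTg with the limited list. Ranked by −log10 q, the share of peaks at or above became 59.1% in WT and 83.0% in 3xTg for Ntrk2, and 51.6% and 71.99% for Ntrk3. The cause was not tested. With chromosome Y kept, these shares were 67.0% and 80.6% for Ntrk2 and 44.95% and 63.3% for Ntrk3, against 67.1%, 80.6%, 44.98% and 63.3% without it. Divided by the median ratio of 1.70, the ratios of 3xTg to WT fell from 1.37 to 0.808 at Ntrk2 and from 1.32 to 0.779 at Ntrk3 and so crossed 1 by construction. Requiring an overlap of 50% of both peaks kept both pairs, and the ratio of a kept pair does not depend on the overlap. The number of receptor peaks with an RE1 match stayed at 0 with 6 mismatches allowed and was 1 over whole peaks. With 4 allowed it was 0 too, which the count of 0 at 5 mismatches had already fixed. With predicted transcripts, added after seeing the data, 3 of 4 summits were intronic.

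No paired analysis was possible because the deposited lists pool the replicates, so leaving out each replicate was not run. A region below the lowest listed value of 6.003 in WT or 8.502 in 3xTg is not listed.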

Other observations

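The Ntrk2 window holds the letters TGACTCA, which lie within the 200 bases around both Ntrk2 summits and were searched for on both strands only after they had been seen there. They occurred around the summit in 7.49% of WT peaks and 8.96% of 3xTg peaks, against 3.93% and 4.02% of windows 10 kb downstream, and in neither Ntrk3 window. Over the genome, the 2 sites that match the RE1 consensus without a mismatch were under no peak of either list, and of the 44 sites with 1 mismatch, 10 were under a WT peak (22.7%) and 13 under a 3xTg peak (29.5%).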
